A study of Mus musculus with 32 samples.

Results

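The 10 genes followed here belong to the ADP-ribosylation system: Parp9, Dtx3l, Parp14, Parp10, Parp11, Parp12 and Zc3hav1, which act in antiviral defence, and Parp1, Parp2 and Parp3, which act at DNA breaks. They were chosen by symbol, and all 10 were found by their Ensembl identifier among the 23035 genes of the footprint tables. The cells were neural stem cells (NSCs) grown from the ventricular-subventricular zone (vSVZ), a germinal region of the adult brain, of wild-type C57BL/6 mice aged 8 to 12 weeks. The mice were male according to the study's methods. IFN-β, a type I interferon, or vehicle (BSA in PBS, in the study's methods) was added to the cultures for 2 h or for 14 h, and cycloheximide stalled the ribosomes before every lysis. Each of these 4 groups held 4 cultures, with the replicate numbers 2, 3, 5 and 6 in the early and 1 to 4 in the late groups. Ribo-Seq counts the mRNA fragments that ribosomes protect (footprints), here in the coding sequence (CDS), and each of the 16 lysates also gave a total RNA library. The sources used here do not say which animals gave which culture. p-values then measure the spread between these cultures. The libraries of the 2 exposures also form 2 sets, each with its own vehicle, so that exposure time and library set cannot be told apart where levels are compared between times.

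Enzymes of the PARP family take ADP-ribose from NAD+ and attach it to proteins or nucleic acids. Parp1 and Parp2 build chains of ADP-ribose at DNA breaks, and these chains recruit repair factors. Parp3 adds single units and also acts at breaks. Most of the other members attach single units or have lost the activity, and several are encoded by interferon-stimulated genes (ISGs), whose products restrict viruses. Parp9 forms a complex with Dtx3l, an E3 ubiquitin ligase of the Deltex family. Parp14 carries macrodomains that bind ADP-ribose. Zc3hav1 encodes ZAP, a zinc finger protein that binds CpG-rich viral RNA and brings it to the RNA decay machinery.

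Levels are given as CPM, that is counts scaled to a library of 1000000, with TMM over the 16 footprint libraries. Total counts ranged from 2956297 to 10505108 per footprint library and from 1370008 to 7877753 per total RNA library. The 8 NSC markers examined, among them Nes, Sox2 and Fabp7, summed to between 10780.5 and 18189.8 CPM of footprints in every library. Of 8 microglia markers, 7 had at most 3 footprints in every library of 3 groups, and 6 in the IFN-β group at 14 h. The microglia sum at 14 h ran from 5.94 to 8.61 CPM in vehicle libraries and from 21.0 to 26.6 CPM in IFN-β libraries, nearly all of it from P2ry12, a purinergic receptor, the only microglia marker tested there, which rose by 1.62. The oligodendrocyte markers Mog and Mag and the endothelial markers Pecam1, Cldn5 and Cdh5 had at most 3 footprints in each library of all 4 groups. The oligodendrocyte sum ran from 95.8 to 126 CPM in vehicle libraries of the 14 h set and from 218 to 294 in its IFN-β libraries. The neuron sum there was 1093 to 1196 and 1454 to 1622 CPM. On the log2 scale at 14 h, 3 of 8 NSC markers fell, among them Fabp7 by 0.40 and Slc1a3 by 0.36, and none of the 8 rose. Over all 12113 genes tested at 14 h, 26.3% fell and 26.2% rose. Cnp rose by 1.20 (1 of 2 oligodendrocyte markers tested), Map2 and Tubb3 by 0.44 and 0.23 (2 of 3 neuron markers) and Tek by 0.84 (1 of 3 endothelial markers). At 2 h no marker passed in edgeR, where 878 of 12104 genes did, and 3 passed in DESeq2, where 1159 genes did. At an unadjusted p under 0.05 in edgeR there were 5 markers, against 2100 of all genes. The part of the markers of other cell types in the results was not tested. As bulk libraries, these data cannot tell a change per cell from a change in the share of cells.

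Parp9, Dtx3l and Parp14 lie together on chromosome 16 (mm10). Parp14 covers 35832874 to 35871544 on the minus strand and lies 54966 bp from the Dtx3l gene body, which covers 35926511 to 35939151 on the same strand. Parp9 covers 35938470 to 35972605 on the plus strand. Parp9 and Dtx3l are therefore transcribed away from each other, and their gene bodies share 682 bp at their 5′ ends. In this stretch 184 bp of the Dtx3l CDS lie in Parp9 exons outside the Parp9 CDS, while the coding sequences themselves do not overlap. Parp11, Parp12 and Zc3hav1 lie apart from each other on chromosome 6, Parp10 on 15, Parp1 on 1, Parp2 on 14 and Parp3 on 9. Parp10 shares 205 bp of exons with Plec on the same strand, none of it Parp10 CDS.

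Interferon acts on promoters through the ISRE, whose core was searched for as GAAA, any 2 bases and again GAAA, and through the GAS element, searched for as TTCNNNGAA, both on either strand. RefSeq promoter windows (GRCm38.p6, 250 bases before to 50 after a start site) were at hand for 7 of the 10 members, in 8 windows, and not for Parp9, Parp10 and Parp14. An ISRE core was found in 1 of the 8, the upstream window of Parp11, and it overlapped the only GAS match. Both are shown because they are the only matches among the members, and Parp11 had the smallest footprint response of the antiviral genes. The matches are in capitals, on the plus strand, 44 and 37 bases before the start site. The ISRE core is read on the minus strand.
Parp11 ISRE core, chr6:127446786-127446815: ttccttttagTTTCGATTTCttggaacccg
Parp11 GAS, chr6:127446792-127446821: ttagtttcgatTTCTTGGAAcccgtggcat
Of 32851 windows of all genes in the same table, 3.44% held the ISRE core and 8.3% the GAS letters. No match in the windows of Dtx3l, Parp12, Zc3hav1, Parp1, Parp2 and Parp3 says only that these letters are not within those 300 bases.

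After 2 h of IFN-β, footprints of 7 of the 10 members rose, and none fell. These were Parp9, Dtx3l, Parp14, Parp10, Parp12, Zc3hav1 and Parp3, at an adjusted p under 0.05 in edgeR's quasi-likelihood test. Of all 12104 genes tested, 5.25% rose and 2.01% fell. DESeq2 and limma-voom also called no member lower, and none was lower at an unadjusted p under 0.05 in edgeR. After 14 h, footprints of 8 members rose and those of Parp1 and Parp2 fell, against 26.2% of 12113 genes that rose and 26.3% that fell. All 10 members passed the count filter at both times. At 14 h Parp10 did so only through its IFN-β libraries, and for such a gene a difference is built into the filter. The response at 14 h differed from that at 2 h for all 10 members, higher in 8 and lower in 2, against 15.4% and 15.5% of 12508 genes. Ordered from the highest log2 fold change at 14 h, the 8 members that rose held ranks from 71 to 254 of 12113 genes. The replicate numbers paired the footprint libraries, and with the number as a block the genes called rose from 878 to 3538 at 2 h and from 3867 to 6944 for the difference between times. The members called then numbered 8 at 2 h (15.9% of all genes rose) and again 10 for the difference, 8 higher and 2 lower (28% and 27.5% of all genes).

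Every IFN-β library lay above every vehicle library for 7 members at 2 h (7.68% of all genes) and for 8 at 14 h (23.4%), and below for Parp1 and Parp2 at 14 h (23% of genes).

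**Figure D1:**
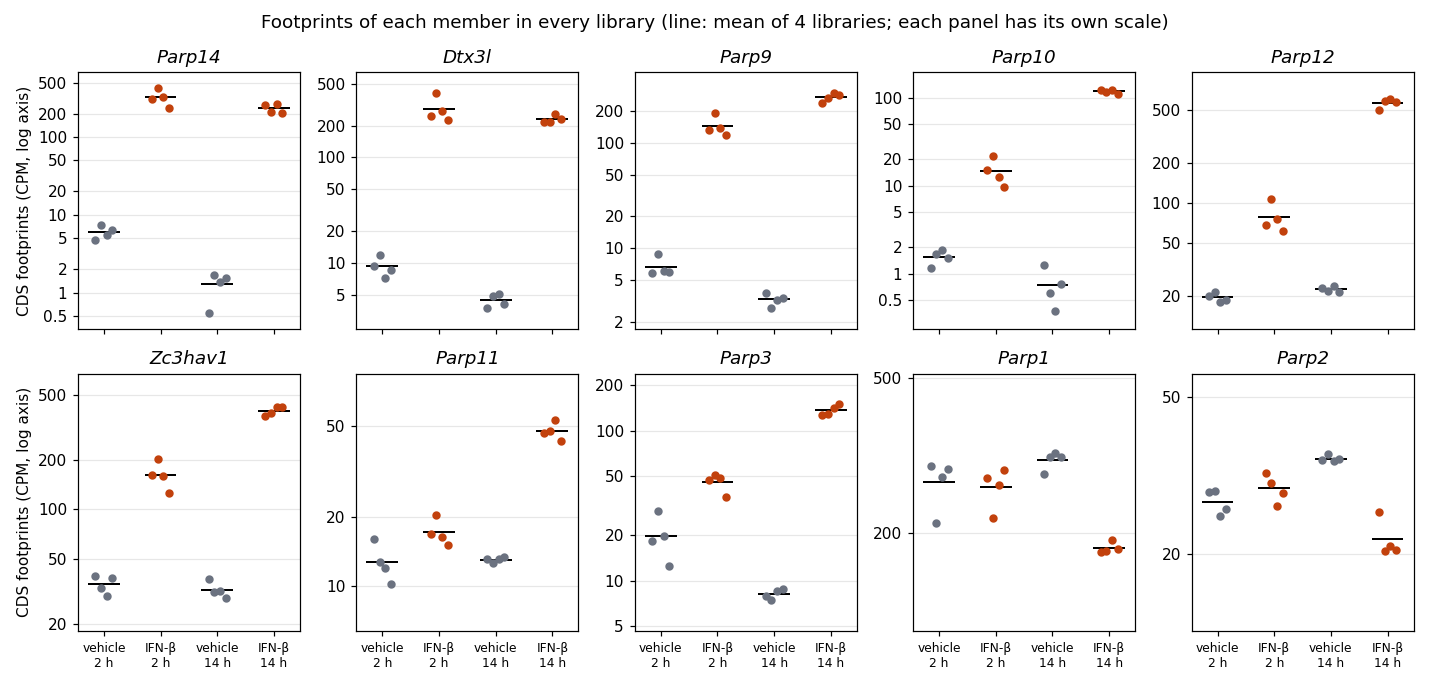
CDS footprints of the 10 genes in each of the 16 libraries, in CPM on a log axis, with 1 point per library (grey for vehicle, orange for IFN-β) and a line at the mean of 4 libraries. The 8 genes from Parp14 to Parp3 sit higher with IFN-β at 14 h in all 4 libraries, and Parp1 and Parp2 lower.

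Within the IFN-β group at 2 h, replicate 3 held the highest level and replicate 6 the lowest of all 8 members other than Parp1 and Parp2. Replicate 3 was also the smallest footprint library at 2 h, with 4956144 counts. Without it, the log2 fold changes at 2 h were 5.61 for Parp14, 4.75 for Dtx3l, 4.31 for Parp9, 3.03 for Parp10, 2.09 for Zc3hav1, 1.82 for Parp12, 1.14 for Parp3 and 0.34 for Parp11, and no member's call changed, at 2 h or for the difference between times.

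Parp14, Dtx3l and Parp9 had the largest footprint responses of the members at 2 h. Parp14 footprints were 4.79, 7.42, 5.56 and 6.34 CPM in the vehicle replicates 2, 3, 5 and 6 and 311, 431, 325 and 237 CPM with IFN-β. In the 14 h libraries, replicates 1 to 4, they were 0.538, 1.70, 1.36 and 1.52 CPM with vehicle and 261, 210.3, 265 and 206 with IFN-β. Each IFN-β library thus lay far above each vehicle library at both times, and vehicle levels were lower in the 14 h set. Parp14 rose by 5.76 ± 0.228 (log2 fold change ± SE, n = 4 against 4; edgeR adjusted p = 8.9e-07) at 2 h and by 7.40 ± 0.163 (adjusted p = 4.1e-13) at 14 h. The vehicle value of replicate 1 at 14 h rests on 3 footprints, and the 4 vehicle libraries hold 47 together.

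Dtx3l, the ligase of the trio, measured 9.47, 12.0, 7.29 and 8.68 CPM with vehicle at 2 h and 248, 403, 276 and 228 CPM with IFN-β. At 14 h these were 3.77, 4.89, 5.08 and 4.09 CPM and 216, 216, 256 and 233 CPM. IFN-β levels at 14 h overlapped those at 2 h, whereas the vehicle levels of the 2 sets did not overlap. The log2 fold change was 4.95 ± 0.235 at 2 h (edgeR adjusted p = 2.0e-06) and 5.67 ± 0.101 at 14 h (adjusted p = 5.6e-14). Its response grew by 0.73 ± 0.265 between the times (adjusted p = 0.0460). That call was lost in limma-voom (adjusted p = 0.0959) and when any of 13 of the 16 libraries was left out (adjusted p from 0.0511 to 0.113). Without replicate 3 of the IFN-β group at 2 h it was 0.93 (adjusted p = 0.00126), and with the replicate number as a block 0.75 (adjusted p = 0.000139).

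Parp9, the partner of Dtx3l, had 5.74, 8.81, 6.09 and 5.93 CPM with vehicle at 2 h and 133, 193, 140.3 and 119 CPM with IFN-β. In the 14 h set Parp9 had 3.77, 2.69, 3.22 and 3.33 CPM with vehicle and 242, 265, 297 and 288 CPM with IFN-β. Of the trio, Parp9 alone was higher with IFN-β at 14 h than at 2 h in every library. Its log2 fold change was 4.47 ± 0.205 at 2 h (edgeR adjusted p = 1.7e-06) and 6.41 ± 0.109 at 14 h (adjusted p = 4.1e-14). The responses of Parp9 and Parp14 grew by 1.94 and by 1.65 (adjusted p = 2.7e-05 and 0.00186).

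**Figure D2:**
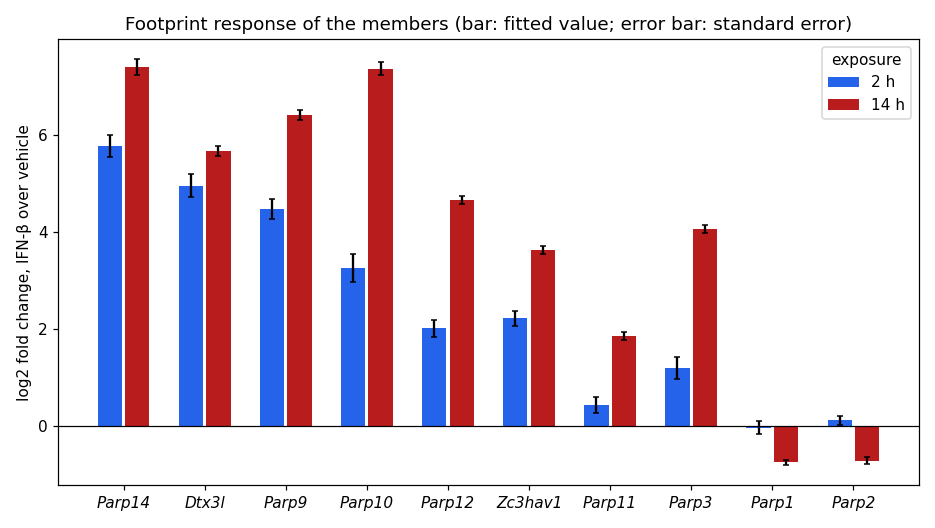
Fitted log2 fold changes of footprints, IFN-β over vehicle, for the 10 genes at 2 h (blue) and 14 h (red), with bars from 0 and error bars for the standard error (4 against 4 libraries at each time). Parp10 went from 3.25 to 7.36 and Dtx3l from 4.95 to 5.67, while Parp1 went from -0.04 to -0.75.

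Parp10 and Parp12, which both attach single ADP-ribose units, had smaller responses at 2 h and the largest growth among the antiviral members. Parp10 was thinly footprinted with vehicle, with 11, 12, 14 and 11 footprints per library at 2 h and 7, 6, 3 and 8 at 14 h. As CPM its IFN-β libraries held 15.3, 21.7, 12.7 and 9.79 at 2 h and 122, 118, 124 and 112 at 14 h. The 4 libraries of the later time lay close together and above all earlier ones. Parp10 rose by 3.25 ± 0.288 at 2 h (edgeR adjusted p = 0.000108) and by 7.36 ± 0.134 at 14 h (adjusted p = 6.5e-14). The difference of 4.12 ± 0.435 (adjusted p = 4.1e-06) held rank 66 of the 12508 genes tested.

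Parp12, an enzyme with RNA-binding zinc fingers, showed 19.8, 21.4, 17.9 and 18.6 CPM with vehicle and 68.0, 108, 76.2 and 61.4 CPM with IFN-β at 2 h. The 14 h libraries held 23.0, 21.7, 23.7 and 21.2 CPM and 503, 579, 604 and 578 CPM. The vehicle levels of both sets overlapped, while all IFN-β libraries at 14 h lay far above those at 2 h. Parp12 rose by 2.01 ± 0.174 (edgeR adjusted p = 9.3e-05) at 2 h and by 4.66 ± 0.0788 (adjusted p = 4.1e-14) at 14 h, a difference of 2.66 ± 0.193 (adjusted p = 1.1e-07).

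Zc3hav1, which encodes ZAP, measured 39.2, 33.4, 29.7 and 38.0 CPM with vehicle and 161, 204, 160.0 and 126 CPM with IFN-β at 2 h. At 14 h it measured 37.5, 31.3, 31.7 and 29.1 CPM and 371, 385, 419.9 and 418 CPM. Its vehicle and IFN-β groups did not overlap at either time. The log2 fold changes were 2.21 ± 0.155 (edgeR adjusted p = 2.2e-05) and 3.63 ± 0.0831 (adjusted p = 6.1e-13), with a difference of 1.42 ± 0.179 (adjusted p = 2.4e-05).

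Among 13 genes that work with ZAP or degrade RNA, 3 rose at 2 h, against 5.25% of all genes, and none fell (also in DESeq2, and at an unadjusted p under 0.05 in edgeR). Trim25, the ubiquitin ligase that ZAP needs for its activity, N4bp1, an endonuclease, and Dcp2, the decapping enzyme, rose by 3.77, 1.00 and 1.08 on the log2 scale. At 14 h 5 rose, 5 fell and 3 did not pass, while of all genes 26.2% rose and 26.3% fell. Trim25 was again the most raised, by 5.33 ± 0.12 (edgeR adjusted p = 5.0e-13), from 2.07 ± 0.426 to 85.4 ± 7.33 CPM (SD, n = 4). Zc3hav1l, the shorter relative of Zc3hav1, fell by 1.11 ± 0.185 (adjusted p = 0.000271), from 5.39 ± 0.624 to 2.65 ± 0.529 CPM. Exosc7, a subunit of the RNA exosome, fell by 0.71 ± 0.0859 (adjusted p = 1.6e-05). Khnyn, an endonuclease cofactor of ZAP, rose by 0.51, and the exonuclease Xrn1 rose by 0.69. The median log2 fold change of the 13 was 0.19 at 2 h and -0.08 at 14 h, against -0.0152 and 0.0030 over all genes.

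Parp11, which attaches single ADP-ribose units and is found at the nuclear envelope, was the antiviral member that moved least. At 2 h it had 16.1, 12.7, 12.1 and 10.2 CPM with vehicle and 16.9, 20.4, 16.5 and 15.1 CPM with IFN-β. These groups overlapped, and the log2 difference of 0.43 ± 0.160 did not pass (edgeR adjusted p = 0.191). With the replicate number as a block it was 0.42 and passed (adjusted p = 0.00747), and each IFN-β library was above the vehicle library of its own number. At 14 h the levels were 13.1, 12.7, 13.1 and 13.4 CPM and 46.7, 47.7, 52.9 and 43.0 CPM. All IFN-β libraries then lay above all vehicle libraries, with a rise of 1.85 ± 0.0852 (adjusted p = 1.2e-09) and a difference between times of 1.44 ± 0.176 (adjusted p = 1.7e-05).

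The 3 DNA repair members went apart. Parp1, the main maker of ADP-ribose chains, had 298, 212, 279 and 292 CPM with vehicle and 277, 219, 266 and 291 CPM with IFN-β at 2 h. At 14 h it had 284, 314, 321 and 313 CPM and 179, 180.5, 192 and 182 CPM. The groups overlapped at 2 h, and at 14 h each IFN-β library lay below each vehicle library. The log2 difference was -0.04 ± 0.128 at 2 h (edgeR adjusted p = 0.95), and at 14 h Parp1 fell by 0.75 ± 0.0539 (adjusted p = 1.0e-07). Over all genes tested at 14 h, 26.3% fell.

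Parp2 is the second chain-building enzyme. It measured 28.7, 28.8, 24.9 and 25.9 CPM with vehicle and 32.0, 30.3, 26.4 and 28.5 CPM with IFN-β at 2 h, and 34.6, 35.8, 34.3 and 34.7 and 25.5, 20.3, 20.9 and 20.4 CPM at 14 h. Replicate 1 of the last group stood above the other IFN-β libraries, which are close together, and all 4 lay below vehicle. The log2 difference was 0.11 ± 0.0961 at 2 h (edgeR adjusted p = 0.670), and Parp2 fell by 0.72 ± 0.0799 at 14 h (adjusted p = 8.1e-06). The responses of Parp1 and Parp2 at 14 h differed from those at 2 h by -0.71 ± 0.144 and -0.81 ± 0.123 (adjusted p = 0.00154 and 0.000145).

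Parp3 moved the other way from Parp1 and Parp2. Its vehicle libraries held 18.5, 29.0, 19.7 and 12.5 CPM at 2 h and its IFN-β libraries 46.9, 50.5, 48.3 and 36.2 CPM. In the 14 h set they held 7.90, 7.39, 8.55 and 8.84 and 128, 128, 142 and 150.0 CPM. All IFN-β libraries lay above all vehicle libraries at both times. Parp3 rose by 1.19 ± 0.227 at 2 h (edgeR adjusted p = 0.0113) and by 4.06 ± 0.0885 at 14 h (adjusted p = 3.8e-13). The difference was 2.87 ± 0.253 (adjusted p = 7.3e-07). Parp3 and Rrp9, on the other strand, share 20 bp of exons.

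As a sum, footprints of Parp1, Parp2 and Parp3 stayed between 269.9 and 364 CPM in all 16 libraries. Parp1 makes up most of this sum. At 14 h, with Parp1 and Parp2 lower and Parp3 higher under IFN-β, the 3 together gave 342 ± 13.3 CPM, against 351 ± 16.6 with vehicle (SD, n = 4).

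Of 12 genes that act with Parp1 in single-strand break repair, none passed at 2 h in edgeR, DESeq2 or limma-voom, and 0 had an unadjusted p under 0.05 in any of these. With the replicate number as a block 1 rose and 1 fell, where 1920 of all 12104 genes rose and 1618 fell. At 14 h 7 fell, 1 rose and 4 did not pass (26.3% of all genes fell and 26.2% rose), with a median of -0.51. Lig1, which joins nicks left by replication and repair, fell by 1.89 ± 0.0979 (edgeR adjusted p = 4.0e-09), from 121 ± 9.06 to 32.4 ± 5.44 CPM. Fen1, the flap endonuclease, fell by 1.51 ± 0.0996 (adjusted p = 4.6e-08), from 84.3 ± 8.47 to 29.3 ± 4.37 CPM. Apex1, the main AP endonuclease, fell by 0.69 ± 0.0627 (adjusted p = 1.1e-06). Xrcc1, the scaffold that binds ADP-ribose chains, and Hpf1, the cofactor that directs Parp1 and Parp2 to serine, fell by 0.51 each. Lig1 and Fen1 also process and join the fragments of the lagging strand at replication.

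**Figure D3:**
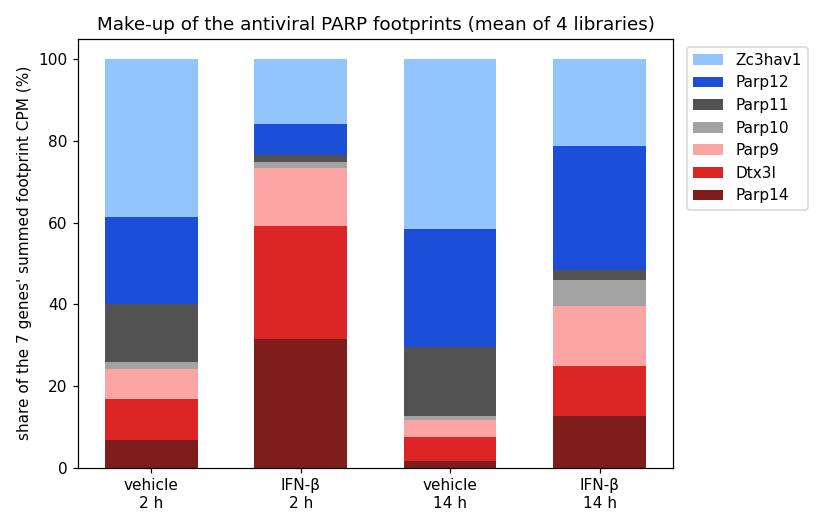
Share in percent of each of the 7 antiviral genes in their summed footprint CPM, as stacked means of 4 libraries in each group. Parp14, Dtx3l and Parp9 (reds) take 31.5%, 27.8% and 14.2% of the bar with IFN-β at 2 h, and Parp12 and Zc3hav1 (blues) 30.3% and 21.3% with IFN-β at 14 h.

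Summed over the 7 antiviral members, footprints were 90.9 ± 7.85 CPM with vehicle and 1034 ± 248 with IFN-β at 2 h, and 77.6 ± 4.13 and 1870.0 ± 109.8 CPM at 14 h (SD, n = 4). The shares are not per length, so each gene is set against itself at the other time. At 2 h of IFN-β, Parp14 took 31.5 ± 1.27% of it, Dtx3l 27.8 ± 1.40% and Parp9 14.2 ± 0.493%. At 14 h the shares were 12.6 ± 1.71% for Parp14, 12.3 ± 0.342% for Dtx3l and 14.6 ± 0.650% for Parp9. Parp12 went from 7.55 ± 0.298% to 30.3 ± 1.37% and Zc3hav1 from 15.8 ± 0.870% to 21.3 ± 0.634%. The shares of Parp14 and Dtx3l thus fell and those of Parp12 and Zc3hav1 grew in every library, while those of Parp9 overlapped. No test was made on the shares. The chromosome 16 trio summed to 761 ± 189 CPM at 2 h and 739 ± 54.8 CPM at 14 h with IFN-β, against 22 ± 4.23 and 8.99 ± 0.677 CPM with vehicle.

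The same shift was seen in levels. These comparisons between times were chosen after the values had been seen, and used an exact permutation test, two-sided, on log2 CPM, with p-values adjusted over 20 comparisons. The smallest p that 4 against 4 libraries allow is 0.0286, which became 0.0440 after adjustment, and the values named as passing below have this p. With IFN-β, Parp10 was 8.01 times and Parp12 7.23 times as high at 14 h as at 2 h. The ratios of Parp3, Parp11, Zc3hav1 and Parp9 were 3.01, 2.76, 2.45 and 1.87, and those of Parp1 and Parp2 were 0.698 and 0.744. All 8 passed, without overlap of the libraries. The ratios of Dtx3l (0.797, adjusted exact p = 0.159) and Parp14 (0.723, adjusted exact p = 0.101) did not pass.

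Vehicle levels differed between the sets as well. Parp14 in vehicle at 14 h was 0.212 of that at 2 h, Parp3 0.41, Dtx3l 0.476 and Parp9 0.489, and Parp2 was 1.29 times as high. These 5 passed, and the other 5 did not. The interferon genes examined as a check moved in the same way, with 38 to 69 footprints of Ifit1 per vehicle library at 2 h and 0 to 2 at 14 h. Mean IFN-β levels of Parp14 and Dtx3l at 14 h were 0.723 and 0.797 of those at 2 h, differences that did not pass. Their growth in fold change therefore lies in lower vehicle levels, as does part of that of Parp9 and Parp3. Time and library set cannot be told apart here. For Parp12, Zc3hav1 and Parp11 the vehicle ratios were 1.15, 0.923 and 1.02. That of Parp10 was 0.48 and did not pass (adjusted exact p = 0.0762), with overlapping libraries.

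The ratio of 2 genes within a library does not depend on its depth or scaling. Dtx3l over Parp9 footprints ran from 1.20 to 1.65 in vehicle libraries and from 1.87 to 2.09 in IFN-β libraries of the 2 h set. In the 14 h set the ranges were 1.00 to 1.81 and 0.809 to 0.890. IFN-β thus raised the ratio at 2 h and lowered it at 14 h, without overlap with vehicle in either set. The CDS of both genes are of like length, 2358 bp for Dtx3l and 2639 bp for Parp9. Between the IFN-β groups the log2 ratio differed by -1.21 (exact permutation p = 0.0286, two-sided, and 0.0381 adjusted over 12 comparisons of 3 ratios). Against vehicle it rose by 0.47 at 2 h and fell by 0.70 at 14 h, with the same p-values. Between the vehicle groups it differed by -0.04 (exact p = 0.83). These ratios were chosen after the values had been seen. Since the numbers pair the footprint libraries, they were also compared within same-numbered pairs, where an exact sign-flip test over 4 pairs cannot go below 0.125. The Dtx3l over Parp9 ratio was higher with IFN-β in 4 of 4 pairs at 2 h and lower in 4 of 4 at 14 h (exact p = 0.125 for each).

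Parp14 over Parp9 was 1.99 to 2.33 with IFN-β at 2 h and 0.717 to 1.08 at 14 h, a log2 difference of -1.36. The vehicle groups differed by almost as much, -1.32 from 2 h to 14 h. The ratio rose under IFN-β at both times, by 1.28 and 1.24 (exact permutation p = 0.0286, adjusted 0.0381, for each of the 4). Vehicle ratios at 14 h ran from 0.143 to 0.630 and rest on few counts, the lowest, in replicate 1, on 3 over 21 footprints. Within same-numbered pairs at 14 h the log2 differences ran from 0.33 to 2.91, so that the mean of 1.24 is uneven.

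Parp12 over Zc3hav1 ran at 2 h from 0.489 to 0.640 in vehicle libraries and from 0.422 to 0.527 in IFN-β libraries, groups that overlapped (log2 difference -0.22, adjusted exact p = 0.156). It was lower with IFN-β in all 4 same-numbered pairs, with log2 differences from -0.34 to -0.0011 (exact sign-flip p = 0.125, the smallest that 4 pairs allow). At 14 h the ranges were 0.612 to 0.746 for vehicle and 1.36 to 1.5 with IFN-β (1.04, adjusted exact p = 0.0381). The ratio was thus above 1 in the 4 libraries of the later IFN-β group and below 1 in the other 12.

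**Figure D4:**
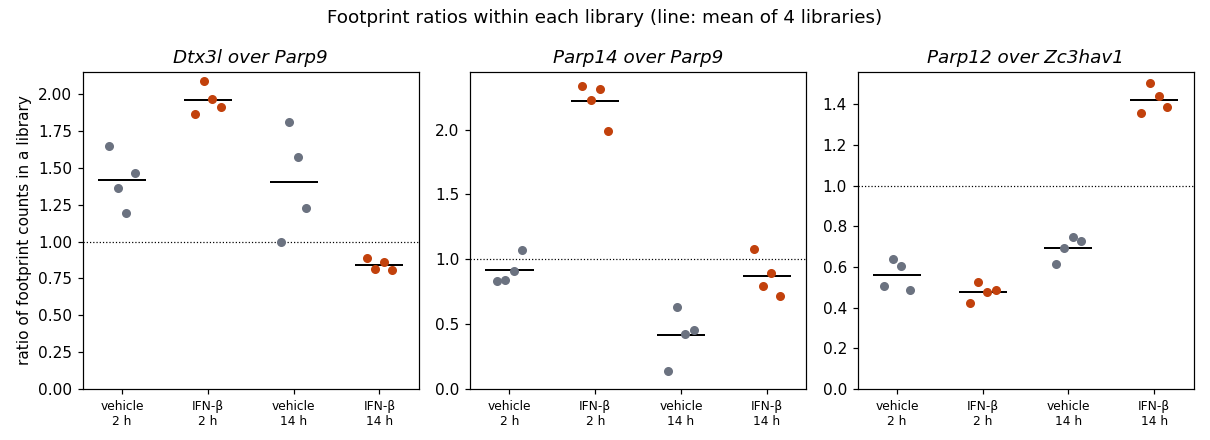
Ratio of footprint counts of 2 genes in each of the 16 libraries, from 0, with a line at the mean of 4 libraries and a dotted line at equal counts (grey for vehicle, orange for IFN-β). Dtx3l over Parp9 lies between 1.87 and 2.09 with IFN-β at 2 h and between 0.809 and 0.890 at 14 h, and Parp12 over Zc3hav1 lies above 1 only with IFN-β at 14 h.

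Per kb of CDS, which allows genes to be compared, Parp1 was the highest member with vehicle, at 88.9 ± 13.1 CPM per kb at 2 h and 101 ± 5.35 at 14 h, and no other member's libraries reached it. Parp2 followed at 16.2 ± 1.18 and 20.8 ± 0.397 CPM per kb. At 2 h its range overlapped that of Parp11, and those of Parp11, Parp3, Zc3hav1 and Parp12 overlapped in turn. Dtx3l and Parp9 came next, and Parp10 and Parp14 were the lowest, with 0.540 and 1.11 CPM per kb at 2 h and overlapping values of 0.259 and 0.235 at 14 h. At 2 h of IFN-β, Dtx3l led with 123 ± 33.4 CPM per kb, above Parp1 with 86.5 ± 10.2 in each library. Parp14 with 59.8, Parp9 with 55.5 and Zc3hav1 with 52.4 CPM per kb had overlapping ranges. After 14 h, Parp12 led with 265 ± 20.4 CPM per kb, then Zc3hav1 with 128 ± 7.79, each apart from the next. Parp9 with 103 and Dtx3l with 97.7 overlapped, as Dtx3l did with Parp3 (84.5 CPM per kb). Parp1 was at 60.4 ± 1.93 CPM per kb, and Parp2 was the lowest at 13 ± 1.49. Parp11, Parp14 and Parp10 lay between them with neighbouring ranges that overlapped.

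Of the 7 remaining PARP genes (Parp4, Parp6, Parp8, Parp16, Tiparp, Tnks and Tnks2), 1 rose at 2 h (5.25% of all genes did), Parp8 by 1.07 ± 0.0943 (edgeR adjusted p = 0.000102). At 14 h 4 rose (26.2% of all genes did) and none fell, with a median of 0.28. These were led by Parp4, a component of vault particles, which rose by 1.44 ± 0.105 (adjusted p = 1.2e-07), from 11 ± 1.52 to 29.2 ± 1.55 CPM. Tiparp, a target of the aryl hydrocarbon receptor, and Parp8 rose by 0.39 ± 0.0618 and by 0.29 ± 0.0898 (adjusted p = 0.000177 and 0.0153).

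Of 9 genes listed for the synthesis of NAD+, the substrate of all PARP enzymes, 7 could be tested. Among these is Nadk, a kinase that does not make NAD+ but turns it into NADP+. Nampt, the rate-limiting enzyme of the salvage pathway, rose already at 2 h, by 1.20, and the other 6 did not pass. Of all genes 5.25% rose at 2 h. At 14 h 4 rose, among them Nadk by 0.25, against 26.2% of all genes, and none fell. Nampt footprints went from 53.9 ± 3.48 to 221 ± 8.06 CPM (log2 fold change 2.03 ± 0.0625, edgeR adjusted p = 1.5e-11). Nmnat2, the NAD+ synthase of axons and Golgi, rose by 1.69 ± 0.101 (adjusted p = 1.6e-08), and the nuclear Nmnat1 rose by 0.45 ± 0.117 (adjusted p = 0.00584).

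Of 7 genes that remove ADP-ribose, 6 were tested. None passed at 2 h in edgeR, DESeq2 or limma-voom, with 1 at an unadjusted p under 0.05 in edgeR. With the replicate number as a block 1 rose at 2 h (15.9% of all genes did). At 14 h 1 rose and 2 fell, against 26.2% and 26.3% of all genes. Macrod2, a macrodomain hydrolase, fell by 0.78 ± 0.215 (edgeR adjusted p = 0.00849), Oard1 fell by 0.58 ± 0.110 (adjusted p = 0.000695), and Adprh, which acts on arginine, rose by 0.18 ± 0.0690 (adjusted p = 0.0416).

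Relatives of Dtx3l had smaller values than it. Of Dtx1, Dtx2, Dtx3, Dtx4 and Rnf146, a ligase that reads ADP-ribose chains, Dtx4 fell by 0.78 at 2 h and the other 4 did not pass. Over all 12104 genes 2.01% fell. With the replicate number as a block 3 of the 5 fell (1618 of all genes did), and 2 in DESeq2 (378 of all genes did). At 14 h 4 of the 5 rose, by at most 0.97 (26.2% of all genes rose). Dtx1 rose by 0.97 ± 0.142 (edgeR adjusted p = 8.5e-05), Dtx4 by 0.56 ± 0.0763 (adjusted p = 4.6e-05) and Dtx3 by 0.54 ± 0.126 (adjusted p = 0.00308). The log2 fold change of Dtx3l at that time was 5.67.

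All 7 interferon genes examined as a check rose at both times, against 5.25% of all genes at 2 h and 26.2% at 14 h. At 14 h Isg15, Ifit1, Ifit3, Usp18 and Oasl2 passed the count filter only through their IFN-β libraries, so that a difference of these 5 is built into the filter. Ifit1 went from 6.99 ± 1.70 to 1019.9 ± 560.5 CPM at 2 h, and Ifit3 from 5.62 ± 0.966 to 722 ± 251. At 14 h Oasl2, an oligoadenylate synthetase-like protein, had 0.282 ± 0.236 CPM with vehicle and 927 ± 53.5 with IFN-β. Ordered from the highest log2 fold change, Parp14 held rank 43 of 12104 genes at 2 h, the foremost of the members.

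Over the 16 footprint libraries, the genes whose log2 CPM (pseudocount 0.5 CPM) followed a member most closely were found by Pearson's r among 11816 genes. The r values describe libraries that share groups, cultures and depth, and are given without a test. For Parp9 they were Isg15, Rsad2 and Gm4951 (r = 0.997 for each). Parp14 was followed by Gbp2 and Irgm2 (r = 0.996 for both), which are interferon-inducible GTPases, and by Dtx3l (r = 0.994). For Zc3hav1 they were Tgtp2 (0.997), Ddx60 (0.997) and Tgtp1 (0.996). Tgtp1 and Tgtp2 are near-identical copies, so that reads may not be split between them with certainty. Parp1 was followed by Hells (0.992), Cdt1 (0.992) and Uhrf1 (0.989), which act in DNA replication and chromatin copying. Among the members, Dtx3l was closer to Parp14 (r = 0.994) than to its partner Parp9 (r = 0.985).

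Total RNA of the members was thinly counted. Their median was 22 counts per library at 2 h and 8.12 at 14 h, against 407 and 763 footprints. Genes with a mean of at least 500 footprints had a median of 43.1 total RNA counts at 2 h where another gene lies on the opposite strand and 20.2 where none does, and 15.5 and 5.88 at 14 h. The kit keeps the strand, and the sources used here do not state whether the counting used it, ignored it or took the opposite setting. With the opposite setting, a gene's total RNA count would be of reads from its other strand and no measure of its mRNA. Over 12056 genes with a mean of at least 10 footprints, total RNA counts followed the gene's own footprints with a Spearman's rho of 0.31 at 2 h, and over 12051 genes at 14 h with 0.22, given across genes as a description. Of these, 9414 genes at 2 h and 9413 at 14 h had no gene on the other strand, with rho of 0.36 and 0.27. Other genes overlap a single gene on the other strand. For 1342 of them at 2 h, rho was 0.017 with their own footprints and 0.12 with those of the other gene. For 1348 at 14 h it was -0.0082 and 0.11. Genes examined as a check did not all rise in total RNA. Stat2, a transcription factor of the interferon pathway, had 0.92 at 2 h and -0.14 at 14 h (log2, neither passed) beside footprint rises of 4.03 and 4.63, and Usp18, a protease that removes ISG15, had -0.26 at 2 h beside 6.69. Oasl2 rose in total RNA at both times, but at 14 h it passed the filter only through its IFN-β libraries. P2ry12 fell by 1.03 in total RNA at 14 h (edgeR adjusted p = 0.0130), where its footprints rose by 1.62. Where strand is not used in counting, reads of Parp9 and Dtx3l cannot be told apart in their shared stretch.

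With these limits, total RNA rose at 2 h for 3 of the 7 members that passed the filter, against 0.722% of 11639 genes, and at 14 h for 2 of 5, against 3.47% of 7520 genes. No member fell (0.0773% and 2.83% of genes did). Parp9 RNA counts at 2 h were 38, 33, 13 and 36 with vehicle and 171, 388, 139 and 80 with IFN-β, and Parp9 rose by 2.50 ± 0.404 (edgeR adjusted p = 0.0102). Replicate 3 with IFN-β stood far above the rest. Parp12 and Zc3hav1 rose by 2.51 ± 0.417 and by 1.51 ± 0.289 (adjusted p = 0.0121 and 0.0290). The Dtx3l value of 2.76 ± 0.625 did not pass (adjusted p = 0.0821). At 14 h Parp9 rose by 1.13 ± 0.241 (adjusted p = 0.00853) and Dtx3l by 2.70 ± 0.439 (adjusted p = 0.000921). Dtx3l then had 4, 1, 1 and 1 counts with vehicle and 13, 17, 21 and 14 with IFN-β. It passed the filter only through its IFN-β libraries, as did Dtx3l and Parp12 at 2 h. For such a gene a difference is built into the filter. The counts of 3 and 2 called members include Parp12 at 2 h and Dtx3l at 14 h. The Zc3hav1 call at 2 h was lost when any 1 of the 8 libraries was left out, that of Parp9 without vehicle replicate 3, 5 or 6, and that of Parp12 without vehicle replicate 6 or in limma-voom (adjusted p = 0.0628). The Parp9 call at 14 h was lost under scaling by total counts alone (adjusted p = 0.0794). Parp1 and Parp2 passed in neither comparison (log2 0.87 and -0.0030 at 2 h, -0.43 and 0.27 at 14 h). For genes with at most 3 vehicle counts over the group at 14 h, the RNA ratio of IFN-β over vehicle was 9.52 for Parp10 (95% exact counting interval 1.43 to 404), 11.5 for Parp12 (3.69 to 57.6) and 17.6 for Parp3 (4.61 to 149). These intervals cover counting error only.

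Translational efficiency (TE) is the footprint response less the total RNA response, tested as an interaction at an adjusted p under 0.1, so that it inherits the thin RNA counts and the open strand setting. If total RNA was counted on the opposite strand, these values are no translational efficiency, and they are given as differences between both kinds of count. At 2 h TE was called higher for Parp14 (3.14 ± 0.636, edgeR adjusted p = 0.0202) and Parp9 (2.00 ± 0.468, adjusted p = 0.0634), against 0.581% of 14115 genes. At 14 h it was called higher for Parp9 (5.24 ± 0.270, adjusted p = 4.5e-12), Dtx3l (2.89 ± 0.631, adjusted p = 0.00507), Parp11 (2.26 ± 0.397, adjusted p = 0.000537), Parp14 (5.93 ± 1.02, adjusted p = 0.000435) and Zc3hav1 (2.59 ± 0.403, adjusted p = 0.000124), against 4.49% of 13447 genes. No member was called lower (0.234% of genes at 2 h and 3.96% at 14 h were), and Parp1 had -0.34 ± 0.336 (adjusted p = 0.675) and Parp2 -1.01 ± 0.367 (adjusted p = 0.12, and 0.0517 with the replicate number as a block, where it was called lower). The 14 h calls were lost where a mean of 50 counts was required of a gene, since none of these members was then tested, and the Dtx3l call without replicate 1 of the vehicle group (2.24, adjusted p = 0.241). The 2 h calls were lost under scaling by total counts alone, and without replicate 6 of the vehicle group, that of Parp9 also without any of 4 further cultures.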

How the data were processed

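Ribo-Seq libraries of 16 NSC cultures were analysed from the deposited counts of reads per gene, whole numbers without normalization. According to the study's methods and the processing notes, the authors trimmed reads with TrimGalore 0.4.4, used bowtie 0.12.7 for mapping to ENSEMBL transcripts of mm10, and after dropping duplicates counted reads with SummarizeOverlaps in mode "Union". Footprints were counted over the CDS, total RNA over gene bodies. Removal of duplicates without molecular identifiers can lower high counts. The strand setting is not given in the sources used here. Symbols and coordinates came from GENCODE M21, which held 22282 of the 23035 identifiers of the footprint tables.

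Genes needed 10 counts or more in 4 or more libraries of a comparison. Counts were scaled with TMM and tested with edgeR 4.0.16 (R 4.3.3), quasi-likelihood, two-sided, 4 against 4 cultures, with Benjamini-Hochberg adjustment over all genes tested, at 0.05 (0.1 for TE). The time difference and TE were interaction terms. Other tests were exact permutation and sign-flip tests (scipy 1.17.1). The tests were tried on simulated data first. Alternatives were scaling by total counts or RLE, other filters, DESeq2 1.42.0, limma-voom (limma 3.58.1), the replicate block and leaving out each culture. Replicate numbers paired the footprint libraries: deviations of same-numbered libraries from their group means correlated at 0.33 to 0.81 at 2 h and 0.19 to 0.42 at 14 h. The members, lists and tests were chosen with earlier results of these data known. All 10 members are named, and of each other list the 3 called genes with the largest change at 14 h, and the 3 genes nearest in pattern to Parp9, Parp14, Zc3hav1 and Parp1. Further list genes named at 2 h or 14 h (Parp8, N4bp1, Dcp2, Khnyn, Xrn1, Xrcc1, Hpf1 and Nadk) were chosen after their values were seen. Some items are not reported here.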

Additional observations from a re-analysis of the deposited data

Results flagged for a closer look

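The footprint response to IFN-β differed between 14 h and 2 h for every one of the 10 members by the test of the interaction, with log2 differences of 1.94 for Parp9, 0.73 for Dtx3l, 4.12 for Parp10, 1.44 for Parp11, 2.66 for Parp12, 1.65 for Parp14, 1.42 for Zc3hav1, -0.71 for Parp1, -0.81 for Parp2 and 2.87 for Parp3. Of all genes 15.4% differed in the direction of the first 7 and of Parp3, and 15.5% in the other.

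In 7 of 80 groups of 4 libraries (10 genes, 2 kinds of library, 4 groups) 1 library lay far from the other 3 by Dixon's test, where chance gives about 5% of groups. In footprints these were Parp9 in vehicle replicate 3 at 2 h, the highest with 8.81 CPM, and Parp2 in IFN-β replicate 1 at 14 h, the highest with 25.5 CPM. In total RNA, IFN-β replicate 3 at 2 h was the highest for both Parp9 (63.8 CPM) and Dtx3l (22 CPM). Vehicle replicate 1 at 14 h was the highest for Parp10 (0.368 CPM, a single count) and Parp3 (0.737 CPM, 2 counts), and vehicle replicate 2 at 2 h was the lowest for Parp3 (0.0 CPM).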

How the results depend on the processing

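All footprint calls at 14 h kept their direction and call in every alternative that tested the gene. When 1 IFN-β library at 14 h was left out, Parp10 fell below the filter and was not tested, so that 7 to 8 members rose. At 2 h the replicate block added a call on Parp11 (0.42) and changed no other member's footprint call, and it gave 3538 genes at 2 h and 6944 for the difference between times. Leaving out each culture gave 517 to 953 genes at 2 h, 5613 to 6353 at 14 h and 3229 to 4929 for the difference, with 7 members higher at 2 h and 7 to 8 higher and 2 lower in the others. Parp1 footprints at 2 h, not called, then ran from -0.13 to 0.043.

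Total RNA and TE moved more. For total RNA at 2 h, the genes called numbered 174 and the members higher 5 without a filter, 44 genes and 1 member with a mean of 50 counts, and 169 genes in DESeq2. Left-out cultures gave 30 to 74 genes and 0 to 2 members. At 14 h, total counts alone gave 269 genes and 1 member, a mean of 50 counts 247 genes and 0 members, and DESeq2 1 member. Left-out cultures gave 171 to 450 genes and 1 to 3 members. For TE at 2 h the genes were 51 with total counts (0 members), 27 with a mean of 50 (1 member), 250 in DESeq2 and 242 in limma-voom, and 70 to 149 genes and 0 to 3 members over left-out cultures. For TE at 14 h a mean of 50 counts gave 380 genes and 0 members, and left-out cultures 828 to 1111 genes and 4 to 5 members. Parp2 TE at 14 h was called lower, as 1 member, without a filter, in DESeq2, in limma-voom and with the block, and in 0 to 1 members over left-out cultures. Uncalled values changed sign for Parp2 total RNA at 2 h (0.24 with total counts, 0.0020 in limma-voom, 0.0027 with the block, -0.23 to 0.18 over left-out cultures) and at 14 h (-0.089 to 0.68), for Parp11 TE at 2 h (0.052 in limma-voom, -0.26 to 0.17), for Parp2 TE at 2 h (-0.23 with total counts, -0.016 to 0.42) and for Parp3 TE at 2 h (-0.67 to 0.036). The cause was not tested. Total RNA replicate numbers did not pair the libraries (correlations of -0.48 to 0.39 at 2 h and -0.01 to 0.26 at 14 h), and the block gave 63 and 519 genes there and lost the Zc3hav1 call at 2 h (adjusted p in edgeR = 0.0891). Beside the calls on Parp11, Zc3hav1 and Parp2 given above, the block changed no member's call. Total RNA is limited by depth, with medians of 22 and 8.12 counts per member and library, and by the unknown strand setting of its counting. For the ratios of 2 members, comparison within same-numbered pairs, chosen after seeing the data, kept each direction, and its smallest possible p is 0.125.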
